A study of Mus musculus with 2 samples.

Results

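The nuclear genes Me2, Pck2, Got2, Pisd and Mtx1, which encode proteins of mitochondrial metabolism and membranes, were examined at the level of single isoforms in mouse muscle stem cells (MuSCs). These 5 genes were selected on the same long-read values: 1 of their isoforms took a very different share of UMIs in barcodes with few UMIs than in barcodes with many. So the isoform shares below are a description of that choice and not a test of it. Of the 68065 isoforms counted in the long-read table, over 12032 genes, 36 belong to these genes: 10 to Me2, 8 to Pck2, 7 to Mtx1, 6 to Got2 and 5 to Pisd.

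The cells came from mice carrying Pax7creERT2 and R26-eYFPfl/fl on a C57BL6 background. Cre in these mice is driven by Pax7, a transcription factor of satellite cells, and 5 daily doses of 100 µL of tamoxifen (20 mg/ml) at 3 months of age started the YFP label by which cells were sorted. Quiescent MuSCs came from uninjured hindlimb muscle 2 weeks after the last dose, and activated MuSCs from muscle taken 72 h after 40 µL of 1.2% barium chloride. Both kinds of cell are in the same Chromium v2 capture, with no label that tells them apart, and the capture was divided into a 10% library with short and Nanopore long reads and a 90% library with short reads alone.

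The barcodes were therefore compared by depth. The low-UMI set holds barcodes of 3000 to 15000 short-read UMIs with 0 UMIs of the cell cycle genes Rrm2, Top2a and Cdk1, and the high-UMI set holds barcodes of at least 20000 short-read UMIs. In the 10% library these are 157 and 79 of 1991 barcodes, with 1114508 and 5099209 short-read UMIs and 1382498 and 4628237 long-read UMIs. In the 90% library they are 1243 and 606 of 3001 barcodes, with 6452314 and 29875734 short-read UMIs. The sets differ in depth and in state at once: Calcr, a receptor of quiescent satellite cells, stood at 23.3 CPM (UMIs per 1000000 UMIs of the set) in the low-UMI and 0.196 CPM in the high-UMI set of the 10% library, while the proliferation marker Mki67 stood at 0.897 and 30.8 CPM. The 7 quiescence markers summed to 1248 and 53.3 CPM in this library. Myod1, a myogenic factor of activated cells, was also higher in low-UMI barcodes, at 1106 and 185 CPM, so the summed level of the 7 activation and cycling markers was 1129 CPM in low-UMI and 610 CPM in high-UMI barcodes, and 1139 and 810 CPM in the 90% library. The rule of the low-UMI set puts 3 of these 7, Rrm2, Top2a and Cdk1, at 0 there, and its effect on Mki67 was not tested. Doublets were neither called nor removed, and a barcode of either set may hold more than 1 cell. Depth and cell state cannot be told apart in this comparison, nor can fewer transcripts of 1 kind and fewer cells that carry them.

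The libraries are not independent. All 157 low-UMI and all 79 high-UMI barcodes of the 10% library are also listed in the 90% library, and over 20506 genes the log counts of the same barcode in both had a median correlation of 0.929 in the low-UMI and 0.962 in the high-UMI set, against 0.708 and 0.822 for another barcode of the set. Levels of the 5 genes and list counts in the 90% library are therefore also given without the barcodes that both list, which leaves 1000 low-UMI and 399 high-UMI barcodes. Immune markers summed to 259 CPM in the low-UMI and 59.2 CPM in the high-UMI set of the 10% library, with Ptprc, C1qa and Csf1r at 0 in the low-UMI set, and to 215 and 4.35 CPM in the 90% library, where all 7 were above 0. Only 2 of the 7 were higher in the low-UMI set of the 10% library, where Cd74 alone stood at 235 and 1.18 CPM. In the 90% library all 7 were higher in the low-UMI set. Without the barcodes that carry at least 2 immune UMIs, 1 and 9 of the sets of the 10% library, no difference in isoform share and no level ratio of the 5 genes left its interval, although the share of the truncated Got2 isoform in high-UMI barcodes was 2.64% and that of the full-span Got2 isoforms 96.0%, both outside the intervals of the values with all barcodes. Fibro-adipogenic markers stood at 159 and 62.6 CPM and myofibre markers at 52.0 and 25.5 CPM in the low-UMI and high-UMI sets of the 10% library, with Pdgfra, Lum, Myh4 and Myh1 at 0 in the low-UMI set. Only 1 of 5 fibro-adipogenic markers, Col3a1 (148 and 28.2 CPM), and 2 of 5 myofibre markers were higher in that low-UMI set. In the 90% library the fibro-adipogenic markers stood at 260 and 33.2 CPM and the myofibre markers at 69.3 and 40.2 CPM, with Pdgfra at 0 in the low-UMI set. There 4 of 5 of each kind were higher in low-UMI barcodes. The part of these markers in the differences below was not tested. There is 1 capture and no replicate, so no test between the sets was possible. Intervals are 95% intervals, exact for shares, levels and ratios and Newcombe's for differences of shares, and cover counting error only. UMIs of 1 barcode are not independent of each other.

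Most of these proteins work inside mitochondria and 1 on their surface. Me2, Pck2 and Got2 act where the tricarboxylic acid (TCA) cycle is joined to other pathways: Me2 is the mitochondrial malic enzyme, which turns malate into pyruvate, Pck2 is the mitochondrial phosphoenolpyruvate carboxykinase, which turns oxaloacetate into phosphoenolpyruvate (PEP), and Got2 is the mitochondrial aspartate aminotransferase of the malate-aspartate shuttle. Pisd decarboxylates phosphatidylserine to phosphatidylethanolamine in the inner membrane. Mtx1, metaxin 1, is part of the machinery that sorts and assembles proteins in the outer membrane. Resting satellite cells carry few mitochondria and add mitochondrial mass as they enter the cell cycle.

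In 4 of the 5 genes the isoform that gained most in low-UMI barcodes stopped inside an intron of the coding transcript. These were Me2, Pck2, Got2 and Pisd, and in Mtx1 the isoforms that exchanged shares had the same ends. The largest difference in the share of a single isoform was 69.2 percentage points in Pck2, 68.3 in Pisd, 54.8 in Me2, 45.7 in Got2 and 43.6 in Mtx1. They rank 2, 3, 6, 22 and 30 of 3265 genes with at least 50 long-read UMIs in each set. Over those genes, 17.3% reached a difference of at least 20 points, and all 5 genes did, as the choice of the genes required.

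**Figure D1:**
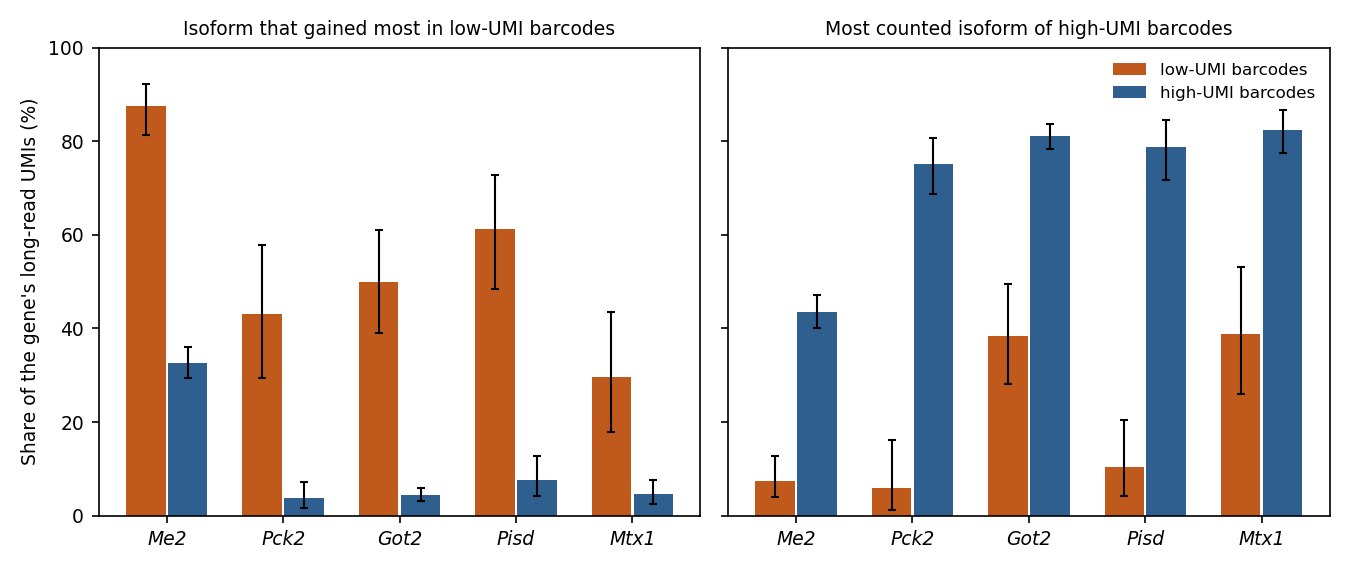
Share of each gene's long-read UMIs, in percent, held by the isoform that gained most in low-UMI barcodes (left) and by the most counted isoform of high-UMI barcodes (right). Bars are the summed share in low-UMI (orange) and high-UMI (blue) barcodes of the 10% library with exact 95% intervals, and in all 5 genes the orange bar is the taller one on the left and the shorter one on the right.

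Isoforms are named here by their ends on mm10, since most carry no reference name. Full-span isoforms have ends that enclose the start and the stop codon of the Gencode coding transcript with the longest coding sequence, and the others are truncated on the 5′ side, the 3′ side or both.

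Me2 had the most truncated UMIs. The gene lies on the minus strand of chromosome 18, and its coding transcript has 16 exons. The isoform chr18:73773311-73815438 starts with the coding transcript but ends in intron 14, 83 bases before exon 15 and 2068 bases after exon 14. Its ends enclose 1488 of the 1767 coding bases. It held 140 of 160 long-read UMIs in low-UMI barcodes (87.5%, interval 81.4 to 92.2%) and 251 of 768 in high-UMI barcodes (32.7%, 29.4 to 36.1%). The low-UMI share was 54.8 points higher (47.9 to 60.2). The full-span isoform chr18:73770042-73815438 numbered 4 went the other way, with 12 UMIs (7.5%) against 335 (43.6%). A second full-span isoform that ends 57 bases past the stop codon, chr18:73770571-73815438, held 5 UMIs (3.12%) and 102 (13.3%). In the high-UMI set all full-span isoforms together held 64.1% (60.6 to 67.5%), so the 2 kinds of Me2 transcript stood there at 64.1% full-span and 35.3% truncated on the 3′ side alone, while in low-UMI barcodes they stood at 12.5% (7.81 to 18.6%) and 87.5%.

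The truncated Me2 isoform was spread over many barcodes. It was seen in 56 of the 64 low-UMI barcodes with a long-read Me2 UMI and was the only Me2 isoform in 53 of them. In high-UMI barcodes it was seen in 55 of 68 and was the only one in 11. The 64 low-UMI barcodes held 160 Me2 UMIs and the 68 high-UMI barcodes 768. A barcode with few UMIs can show few isoforms, so the counts of 53 and 11 do not compare like with like. Of its 140 low-UMI UMIs, 138 lay in barcodes in which the short reads gave 0 Me2 UMIs. Only 4 of the 157 low-UMI barcodes had any short-read Me2 UMI, so nearly all barcodes were of that kind.

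Pck2 lies on the plus strand of chromosome 14 and has 10 exons. The truncated isoform chr14:55540309-55543241 ends in intron 2, 590 bases after exon 2, and its ends enclose 356 of 2001 coding bases. It held 22 of 51 UMIs in low-UMI barcodes (43.1%, 29.3 to 57.8%) and 8 of 217 in high-UMI barcodes (3.69%, 1.60 to 7.13%), a difference of 39.5 points (26.4 to 53.2). The main full-span isoform chr14:55540389-55548872, numbered 1, held 163 UMIs (75.1%, 68.8 to 80.7%) in high-UMI barcodes and 3 UMIs (5.88%, 1.23 to 16.2%) in low-UMI barcodes. Another isoform with the same ends, number 4, held 19.6% in low-UMI and 1.38% in high-UMI barcodes. It had 10 low-UMI UMIs from 4 barcodes, 6 of them from 1 barcode. Number 3 held 13.7% and 7.37%, and number 2 held 7.84% and 5.99%, and the intervals of both differences include 0. Of the 7 low-UMI UMIs of number 3, 6 came from 1 barcode. A form that lacks the 5′ side, chr14:55544429-55548934, held 9.8% and 3.23%, with 4 of its 5 low-UMI UMIs from 1 barcode. Full-span isoforms together held 47.1% (32.9 to 61.5%) and 89.9% (85.1 to 93.5%).

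The end of the truncated Pck2 isoform lies 20 bases before the end of Pck2-206, an annotated transcript that keeps the start of intron 2. Its sequence is shown because it is the only one of the intronic ends that a reference transcript covers. The line below runs over chr14:55543162-55543261 on the plus strand, with the last 20 bases lying past the end of the isoform.
Pck2 intron 2 end: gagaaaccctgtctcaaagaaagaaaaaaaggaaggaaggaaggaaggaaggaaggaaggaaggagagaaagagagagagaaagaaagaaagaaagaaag
Past its first bases the stretch is made of A and G alone. Of the 20 bases before the end 11 are A, and of the 20 bases after it 15 are A. Neither of the polyadenylation signals searched on the transcribed strand, AATAAA and ATTAAA, stands in the 80 bases before the end. Among the last 50 bases of 58787 Gencode protein-coding transcripts, AATAAA is found in 40.6% and ATTAAA in 11.9%.

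Got2 lies on the minus strand of chromosome 8 and also has 10 exons. The truncated isoform chr8:95876561-95888370 ends in intron 2, 1152 bases after exon 2, and its ends enclose 246 of 1290 coding bases. It held 43 of 86 UMIs in low-UMI barcodes (50%, 39.0 to 61.0%) and 37 of 856 in high-UMI barcodes (4.32%, 3.06 to 5.91%), a difference of 45.7 points (35.2 to 56.1). The main full-span isoform chr8:95864134-95888392, numbered 1, held 33 UMIs (38.4%, 28.1 to 49.5%) and 694 UMIs (81.1%, 78.3 to 83.6%). A second full-span isoform, numbered 3, held 11.6% and 12%, which differ by less than their counting error. The gain of the truncated isoform was smaller when counted in barcodes than in UMIs. It was seen in 10 of 33 low-UMI barcodes with a Got2 UMI (30.3%, 15.6 to 48.7%) and in 10 of 72 high-UMI barcodes (13.9%, 6.87 to 24.1%), and 1 low-UMI barcode gave 11 of its 43 UMIs. As a mean over barcodes the difference was 23.4 points. In contrast to Me2, only 2 of the 43 UMIs lay in barcodes without a short-read UMI of the gene. Short-read Got2 UMIs were seen in 16 of the 157 low-UMI barcodes, against 4 for Me2.

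Pisd lies on the minus strand of chromosome 5 and has 8 exons. The truncated isoform chr5:32762353-32785626 ends in intron 3, 2420 bases after exon 3, and its ends enclose 312 of 1218 coding bases. It held 41 of 67 UMIs in low-UMI barcodes (61.2%, 48.5 to 72.9%) and 13 of 169 in high-UMI barcodes (7.69%, 4.16 to 12.8%), a difference of 53.5 points (40.5 to 64.7). The annotated full-span transcript Pisd-201 held 7 UMIs (10.4%, 4.30 to 20.3%) and 133 UMIs (78.7%, 71.7 to 84.6%). All 41 low-UMI UMIs of the truncated isoform lay in barcodes without a short-read Pisd UMI, and only 4 of the 157 low-UMI barcodes had such a UMI. In each of the 12 low-UMI barcodes that carried the truncated isoform, it was the only Pisd isoform seen. None of these barcodes had more than 6 UMIs of it, so other isoforms could have been missed.

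The exon junctions past which the truncated isoforms of Got2, Pck2 and Pisd do not reach are shown from the coding transcripts, 30 bases on each side. Lower case is the last exon within the ends of the truncated isoform, and capitals are the first exon beyond its end.
Got2 exon 2 to 3: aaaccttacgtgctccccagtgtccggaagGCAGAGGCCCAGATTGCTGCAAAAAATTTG
Pck2 exon 2 to 3: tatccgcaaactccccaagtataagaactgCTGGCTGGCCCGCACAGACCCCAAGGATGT
Pisd exon 3 to 4: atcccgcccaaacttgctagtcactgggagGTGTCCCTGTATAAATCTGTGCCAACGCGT
The bases in capitals, and the coding sequence after them, lie outside the ends of the 3 truncated isoforms.

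Pisd also had an isoform with another start. The isoform chr5:32736764-32746312 begins in intron 3 of the coding transcript, at the start of the annotated Pisd-203, and its ends enclose 906 of the 1218 coding bases, those that the other truncated isoform lacks. It held 12 UMIs in low-UMI barcodes (17.9%, 9.61 to 29.2%) and 11 in high-UMI barcodes (6.51%, 3.29 to 11.3%), a difference of 11.4 points (2.63 to 22.6). The 12 low-UMI UMIs came from 4 barcodes. The full-span isoform chr5:32736764-32785626 numbered 2 held 8.96% and 2.37%. The sequences before both starts are shown because all counted Pisd isoforms begin at or near these 2 places. The upstream start shown is that of Pisd-201, at position 32785646. The other upstream isoforms, with the one that ends in intron 3, begin at 32785626, the base after the capitals. The sequences are from RefSeq on GRCm38.p6, on the minus strand, with 150 bases before the start in lower case and 20 bases after it in capitals.
Pisd upstream start, chr5:32785627-32785796: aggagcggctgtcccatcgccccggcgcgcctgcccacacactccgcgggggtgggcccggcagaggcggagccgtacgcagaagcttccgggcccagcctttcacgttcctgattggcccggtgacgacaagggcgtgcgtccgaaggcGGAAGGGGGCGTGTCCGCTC
Pisd downstream start, chr5:32746293-32746462: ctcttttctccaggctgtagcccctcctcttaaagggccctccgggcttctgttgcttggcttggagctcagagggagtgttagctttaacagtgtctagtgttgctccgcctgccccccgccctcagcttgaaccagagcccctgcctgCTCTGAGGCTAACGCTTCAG
Counted over the RefSeq windows of 300 bases that hold them, the upstream start has 34 CG dinucleotides and the downstream start 5, against a median of 7 over 32851 promoters. The letters GGGCGG, searched on both strands, are found once around the downstream start and not around the upstream one, and in 35.7% of all promoters. TATAAA is found in neither window and in 13.6% of all promoters. Isoforms that begin in the upstream window held 55 of 67 UMIs in low-UMI and 158 of 169 UMIs in high-UMI barcodes, of which Pisd-201 held 7 and 133.

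Mtx1 lies on the minus strand of chromosome 3 and has 8 exons. Of its 7 isoforms 5 have the same ends and could not be told apart by them. The main isoform chr3:89209092-89213912, numbered 5, held 21 of 54 UMIs in low-UMI barcodes (38.9%, 25.9 to 53.1%) and 236 of 286 in high-UMI barcodes (82.5%, 77.6 to 86.7%). Number 1, with the same ends, held 16 UMIs (29.6%, 18 to 43.6%) and 13 UMIs (4.55%, 2.44 to 7.65%), and number 2 held 8 UMIs (14.8%) and 7 UMIs (2.45%). The gain of number 1 was 25.1 points (14.2 to 38.4) and rested on 4 low-UMI barcodes, and as a mean over barcodes it was 9.24 points. All 8 low-UMI UMIs of number 2 came from 1 barcode. The last 2 isoforms above 5% had differences whose intervals include 0. The annotated Mtx1-203 held 7.41% and 6.99%, and chr3:89209092-89213389 held 5.56% and 1.75%. All 7 isoforms begin downstream of the start codon of the Gencode transcript Mtx1-201, so all count as truncated on the 5′ side by the rule used, although RefSeq starts the gene at position 89213907, within 100 bases of where 6 of them begin. With the RefSeq bounds, full-span shares were 94.4% and 98.3%.

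**Figure D2:**
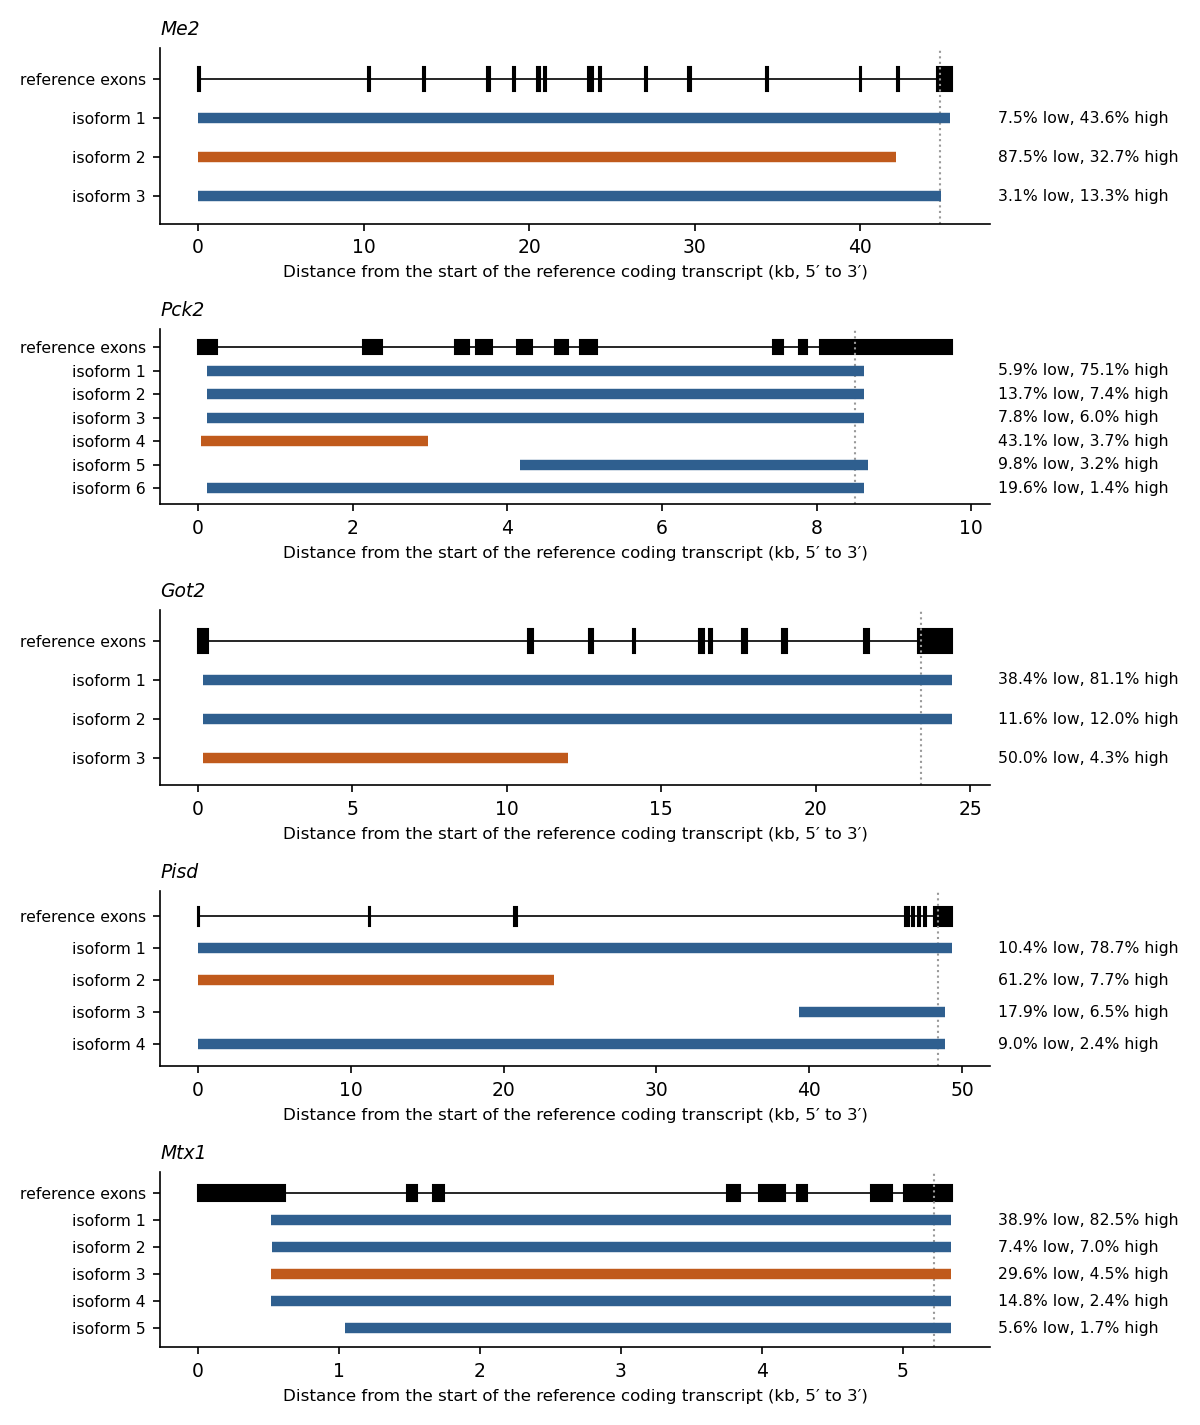
Span of every isoform with at least 5% of its gene's long-read UMIs in either set, drawn as a bar from its 5′ to its 3′ end in kb from the start of the coding transcript, whose exons are black boxes. The dotted line is the stop codon and the shares at the right are those of low-UMI and high-UMI barcodes. The orange bar, the isoform that gained most in low-UMI barcodes, stops before the dotted line in Me2, Pck2, Got2 and Pisd and passes it in Mtx1.

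The inner structure of these isoforms could not be read from the deposited annotation. Its isoform numbers do not follow those of the count table: Pck2 chr14:55540389-55548872 number 3 has 242 supporting reads in the annotation but 23 UMIs in the table, and Me2 chr18:73770042-73815438 number 4 has 35 reads and 437 UMIs. The annotation holds structures with the same or nearby ends. For Me2, 1 structure that ends at the same base has 6 exons, a last exon of 2139 bases and 188 supporting reads, and another has 15 exons, a last exon of 289 bases, which lies inside intron 14, and 78 reads. For Got2, a structure of 2 exons that ends 14 bases further on has a last exon of 1323 bases and 14 reads. For Pisd, a structure of 2 exons with another start ends at the same base, with a last exon of 2596 bases and 83 reads, and 1 of 3 exons that ends in the same intron has a last exon of 1992 bases and 24 reads. For Mtx1, a structure of 8 exons that ends 3 bases further on has 453 reads, and 1 of 5 exons, in which 3 introns are kept whole, has 41 reads.

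Isoforms that end before the stop codon were more common in low-UMI barcodes over all UMIs, and Me2, Pck2, Got2 and Pisd lie far out in that distribution. They were chosen on isoform shares of the same sets, so their ranks describe that choice and are not a test. Over 3192 genes, 9.62% had a share of such isoforms at least 20 points higher in low-UMI barcodes and 0.595% had one at least 20 points higher in high-UMI barcodes. Pisd (53.5 points), Me2 (51.6), Got2 (44.9) and Pck2 (39.5) ranked 7, 11, 33 and 53, and Mtx1 stood at 0. The median share over genes was 3.91% in low-UMI and 1.52% in high-UMI barcodes, while the median of the differences per gene was 0 points. Over all UMIs of genes with a coding transcript the shares were 10.2% (10.2 to 10.3%) and 5.17% (5.15 to 5.19%).

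**Figure D3:**
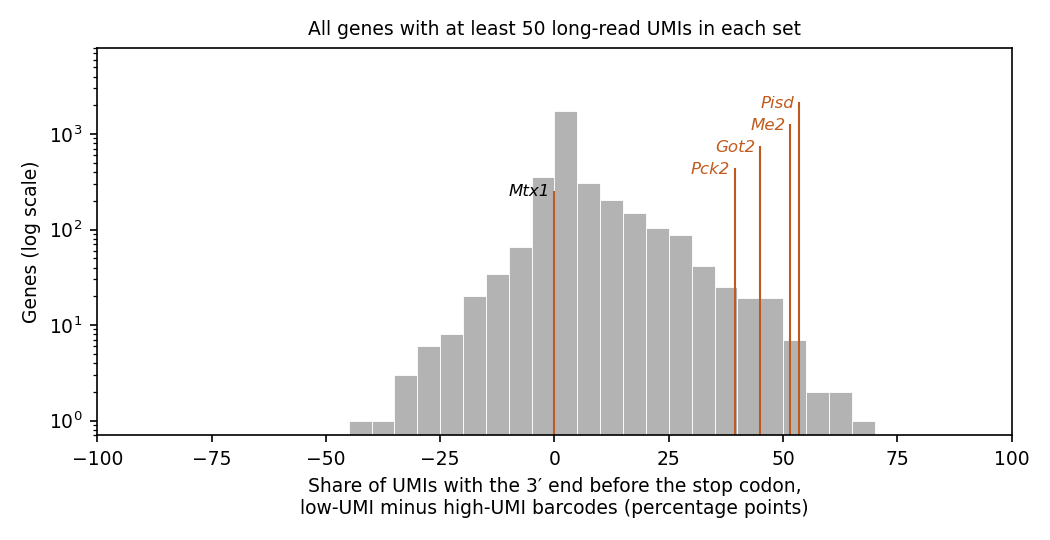
Difference between low-UMI and high-UMI barcodes, in percentage points, in the share of long-read UMIs whose isoform ends before the stop codon, for 3192 genes on a log count axis. Orange lines mark the 5 genes, which were chosen on isoform shares of the same sets. Pck2, Got2, Me2 and Pisd lie between 39.5 and 53.5 points while Mtx1 lies at 0.

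The shares did not follow short-read depth in 1 direction. Barcodes under 1000 short-read UMIs, which are in neither set, had shares nearer to those of the high-UMI set. These 1661 barcodes hold 84049 short-read but 1701003 long-read UMIs, while those of 3000 to 15000 hold 1270988 and 1555136. The origin of the long reads in barcodes under 1000 UMIs was not tested. In them the truncated isoform held 13 of 269 UMIs in Got2 (4.83%, 2.60 to 8.12%), 8 of 81 in Pck2 (9.88%, 4.36 to 18.5%), 18 of 69 in Pisd (26.1%, 16.3 to 38.1%) and 107 of 238 in Me2 (45.0%, 38.5 to 51.5%). In barcodes of 3000 to 15000 UMIs, cycling or not, the shares were 50%, 40%, 55.4% and 83.3%. Above that the genes parted. Between 20000 and 50000 UMIs Pck2 had 0 of 46 UMIs of the truncated isoform, which allows a share of up to 6.52% by the rule of 3 counts, and Got2 had 2 of 126 (1.59%), while Me2 still had 52 of 102 (51.0%, 40.9 to 61.0%). Over 50000 UMIs the Me2 share was 29.9% (26.4 to 33.5%).

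**Figure D4:**
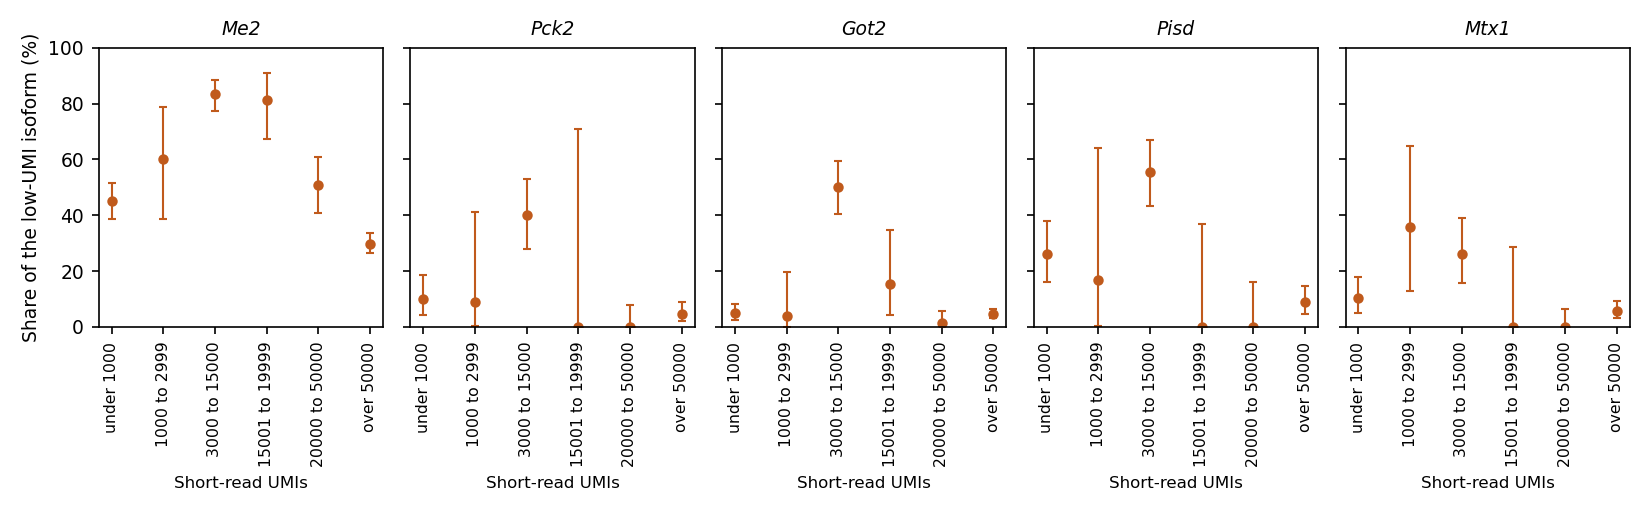
Share, in percent with exact 95% intervals, of the isoform that gained most in low-UMI barcodes, against the number of short-read UMIs per barcode in the 10% library, for all barcodes whatever their cell cycle genes. The share is highest between 3000 and 15000 UMIs for Me2, Pck2, Got2 and Pisd, and the share of Me2 is the highest of the 5 in every bin.

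Measured by short reads, Me2, Got2 and Mtx1 were higher in high-UMI barcodes of both libraries, Pisd was higher on few UMIs in the 10% library and by less in the 90% library, and the ratio of Pck2 was near 1. Me2 had 5 and 208 short-read UMIs in the low-UMI and high-UMI sets of the 10% library, or 4.49 CPM (1.46 to 10.5) and 40.8 CPM (35.4 to 46.7). In the 90% library it had 26 and 1581 UMIs, or 4.03 and 52.9 CPM. The ratio of high-UMI to low-UMI level was 9.09 (3.83 to 28.3) in the 10% library, 13.1 (8.93 to 20.2) in the 90% library and 11.9 (7.87 to 18.8) without shared barcodes, the highest of the 5 genes each time. Got2 stood at 16.2 and 60 CPM in the 10% library and at 20.1 and 66.0 CPM in the 90% library. Its ratios were 3.72 (2.31 to 6.35), 3.28 (2.74 to 3.94) and, without shared barcodes, 3.22 (2.63 to 4.0). Mtx1 stood at 18.8 and 33.3 CPM in the 10% library and at 11.9 and 38.6 CPM in the 90% library. The Mtx1 ratio was 1.77 (1.12 to 2.93) in the 10% library, 3.23 (2.57 to 4.13) in the 90% library and 3.66 (2.76 to 4.94) without shared barcodes.

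For Pisd and Pck2 the ratio depended on the library or its interval included 1. Pisd stood at 3.59 and 10.0 CPM in the 10% library, on 4 and 51 UMIs, and at 9.45 and 13.7 CPM in the 90% library. Its ratios were 2.79 (1.02 to 10.6), 1.45 (1.11 to 1.93) and, without shared barcodes, 1.26 (0.937 to 1.72), an interval that includes 1. Pck2 stood at 12.6 and 14.5 CPM in the 10% library and at 17.7 and 14.4 CPM in the 90% library. Its ratio of 1.16 (0.647 to 2.21) in the 10% library and that of 0.815 (0.661 to 1.01) in the 90% library both have intervals that include 1, and without shared barcodes the ratio was 0.71 (0.554 to 0.917).

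In bins of depth in the 90% library, the levels of Me2 and Got2 differed more between barcodes of 3000 to 15000 UMIs and those of at least 20000 than between the 2 bins above 20000. Me2 stood at 4.96 CPM (3.49 to 6.83) in barcodes of 3000 to 15000 UMIs, cycling or not, at 51.0 CPM (47.3 to 55.0) between 20000 and 50000 UMIs and at 54.5 CPM (51.0 to 58.2) over 50000 UMIs. Got2 stood at 23.2, 61.0 and 70.1 CPM in the same bins, and Pck2 at 17.9, 13 and 15.6 CPM. Without shared barcodes Me2 stood at 4.98, 52.4 and 56.5 CPM, Got2 at 22, 60.8 and 66.6 CPM and Pck2 at 17.7, 10.7 and 14.7 CPM. The 10% library differed for Me2, which stood at 7.87 CPM (3.77 to 14.5), 22.3 CPM (13.4 to 34.9) and 44.5 CPM (38.4 to 51.3). There its level also rose between the 2 bins above 20000. Got2 stood at 18.9, 44.6 and 63.1 CPM and Pck2 at 13.4, 15.3 and 14.4 CPM in that library.

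Read against all genes, levels at least 2-fold higher in high-UMI barcodes were common: 32.3% of 10076 genes with at least 20 UMIs in the sets of the 10% library, and 30.5% of 14932 genes in the 90% library. Of the 5 genes, Me2, Got2 and Pisd passed 2-fold in the 10% library and Me2, Got2 and Mtx1 in the 90% library. Without shared barcodes the same 3 genes as in the 90% library passed, beside 30.5% of all genes. None was 2-fold lower, where 16.4% of all genes were in the 10% library, 19.5% in the 90% library and 19.1% without shared barcodes.

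Long-read levels of the intron-ended and the other isoforms moved in opposite directions. For Me2 the intron-ended isoforms stood at 101 CPM of long-read UMIs (85.2 to 119) in low-UMI and 58.6 CPM (51.8 to 66.0) in high-UMI barcodes, and the other isoforms at 14.5 CPM (8.84 to 22.3) and 107 CPM (98.2 to 117). The ratio of high-UMI to low-UMI level of the other isoforms was 7.42 (4.75 to 12.3), beside the short-read ratio of 9.09 for the whole gene. For Got2 the intron-ended isoforms stood at 31.1 and 9.51 CPM and the others at 31.1 and 175 CPM, a ratio of 5.64 (4.15 to 7.86) beside a short-read ratio of 3.72. For Pisd they stood at 29.7 and 2.81 CPM and the others at 18.8 and 33.7 CPM, a ratio of 1.79 (1.18 to 2.83) beside 2.79. For Pck2 they stood at 15.9 and 1.73 CPM and the others at 21 and 45.2 CPM, a ratio of 2.15 (1.46 to 3.29) beside 1.16. In low-UMI barcodes the intron-ended isoforms were thus 1.73 (1.40 to 2.13) times their high-UMI level in Me2, 3.27 (2.10 to 5.10) times in Got2, 9.21 (3.95 to 23.9) times in Pck2 and 10.6 (5.55 to 21.5) times in Pisd. Mtx1, without such isoforms, stood at 39.1 and 61.8 CPM, a ratio of 1.58 (1.18 to 2.16). Over all isoforms the long-read ratio was 1.43 (1.21 to 1.71) in Me2 and 2.97 (2.38 to 3.76) in Got2. In Pisd it was 0.753 (0.565 to 1.02) and in Pck2 1.27 (0.933 to 1.76), and both intervals include 1.

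Among the 5 genes, the 2 kinds of read disagreed most in low-UMI barcodes for Me2 and Pisd, which had the highest intron-ended shares. The long-read level there was 25.8 times the short-read level in Me2 and 13.5 times in Pisd. These values rest on 5 short-read UMIs of Me2 and 4 of Pisd. The short-read level of Pisd was 3.59 CPM (0.978 to 9.19) in that set and 9.45 CPM in the low-UMI set of the 90% library. In Mtx1, Pck2 and Got2 the long-read level was between 2.07 and 3.85 times the short-read level. In high-UMI barcodes the long-read level was between 1.85 and 4.07 times the short-read level in the 5 genes. The median over 3250 genes was 2.3 times in low-UMI and 2.22 times in high-UMI barcodes. In low-UMI barcodes 1.23% of these genes were at or above the value of Me2, and 9.38% were at 4 times or more.

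**Figure D5:**
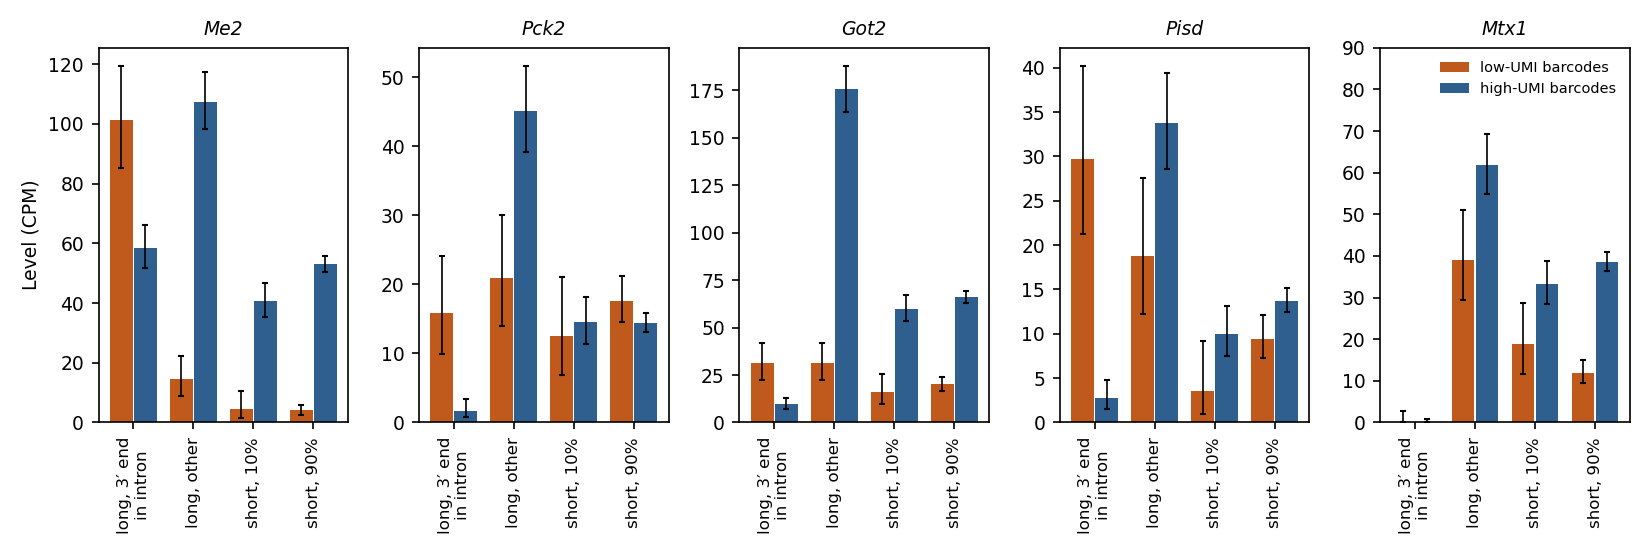
Level in CPM of long-read UMIs in isoforms with the 3′ end in an intron and in the other isoforms, beside the short-read level of the whole gene in the 10% and the 90% library, for low-UMI (orange) and high-UMI (blue) barcodes with exact 95% intervals. Long-read and short-read CPM have different totals, so heights compare within a kind of read. In Me2, Pck2, Got2 and Pisd the intron-ended bar is taller in low-UMI barcodes and the other long-read bar is taller in high-UMI barcodes.

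Near-copies and overlapping genes could share reads with 3 of the genes. The pseudogenes Pisd-ps1 and Pisd-ps2 had 2 and 1 UMIs in the low-UMI set of the 10% library, beside 4 of Pisd, and Got2-ps1 had 0 and 12 UMIs in the low-UMI and high-UMI sets, beside 18 and 306 of Got2. Thbs3, which adjoins Mtx1, had 1 and 7 UMIs.

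Other genes of the pathways around the 5 genes were read against the same shares over all genes, with 32.3% at least 2-fold higher in high-UMI barcodes of the 10% library and 30.5% of the 90% library, with or without shared barcodes. Of 13 enzymes and carriers of malate, PEP and aspartate, which include Me2, Pck2 and Got2, 9 of 10 measured were at least 2-fold higher in high-UMI barcodes of the 10% library and 9 of 12 in the 90% library, where Me3 and Pcx, the pyruvate carboxylase, were lower. Slc25a13, an aspartate-glutamate carrier counted among those higher, had 0 UMIs in the low-UMI sets, and with a floor of 3 UMIs in place of 0 the counts were 8 and 9. The median log2 ratio was 1.87 and 2.09, or 1.91 and 2.13 with that floor, beside 0.27 and 0.24 over all genes. Among genes at least 2-fold higher in both libraries with that floor, the largest mean log2 ratios after Me2 were those of 3 genes. These were Me1, the cytosolic malic enzyme (4.15-fold and 7.3-fold in the 10% and 90% libraries), Mdh1, the cytosolic malate dehydrogenase (4.87-fold and 4.58-fold), and Slc25a11, the malate carrier (3.8-fold and 4.8-fold). Of 18 TCA cycle genes 12 were higher in the 10% library and 14 in the 90% library, led by Sdhd, a subunit of succinate dehydrogenase (7.8-fold and 6.47-fold), Idh3a (6.16-fold and 5.97-fold), Suclg1 (4.02-fold and 5.37-fold) and Mdh2 (4.38-fold and 3.62-fold). None of the 18 was at least 2-fold lower in either library. Without shared barcodes the counts higher in the 90% library were 9 of 12 and 15 of 18.

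Among the genes of glutamate, proline and serine metabolism, 10 of 14 were higher in the 10% library and 11 of 15 in the 90% library, also without shared barcodes, beside the 32.3% and 30.5% of all genes. Asns, the asparagine synthetase, was 9.18-fold and 13.6-fold higher, Phgdh, the first enzyme of serine synthesis, 7.59-fold and 8.4-fold, Psat1 6.23-fold and 5.12-fold, and Aldh18a1, of proline synthesis, 5.57-fold and 3.4-fold. Of 16 genes for phosphatidylethanolamine, phosphatidylserine and cardiolipin, 10 were higher in the 10% library and 8 in the 90% library, or 6 without shared barcodes. That last count was near the share of all genes, 30.5%. In the 90% library 1 of the 16 was at least 2-fold lower, with or without shared barcodes. Tamm41, an enzyme of cardiolipin synthesis, had 0 low-UMI UMIs in the 10% library and was at least 8.6-fold higher against a floor of 3 UMIs over the set, and 9.57-fold higher in the 90% library. Prelid1, a phospholipid transfer protein, was 7.68-fold and 5.61-fold higher, Crls1, the cardiolipin synthase, 5.03-fold and 2.09-fold, or 1.94-fold without shared barcodes, and Ptdss2, which makes phosphatidylserine, 2.78-fold and 3.2-fold.

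Of the outer membrane and contact site genes, 14 of 18 were higher in the 10% library and 17 of 20 in the 90% library, or 16 without shared barcodes. Mtx2, the partner of Mtx1, was 9.36-fold and 6.14-fold higher, against ratios of 1.77 and 3.23 for Mtx1. Apoo, of the inner membrane contact sites, was 13.0-fold and 9.19-fold higher, Vdac1, the outer membrane channel, 8.25-fold and 5.08-fold, and Samm50, which inserts barrel proteins, 6.95-fold and 5.3-fold. Atf4, a transcription factor of amino acid stress, and its targets had both directions. Of 13 genes 4 were higher and 5 lower in the 10% library, and 4 higher and 6 lower in the 90% library with or without shared barcodes. Over all genes 32.3% and 30.5% were higher and 16.4% and 19.5% lower, so the count of those higher was near that share. The list had a median log2 ratio of 0.17 and -0.30, beside 0.27 and 0.24 over all genes. Those higher were led by Asns, Phgdh and Psat1, and of those lower Chac1, a glutathione-degrading enzyme, was 5.11-fold and 4.53-fold lower.

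By log2 ratio over both libraries, the genes nearest to each of the 5 among 77 other listed genes were as follows. Me2 (3.18 and 3.72) lay nearest to Asns (3.20 and 3.77) and Phgdh (2.92 and 3.07). Got2 (1.89 and 1.71) lay nearest to Mdh2 (2.13 and 1.86) and Idh2 (2.17 and 1.74). Pck2 (0.21 and -0.30) lay nearest to Mthfd2 (0.23 and -0.22), a mitochondrial folate enzyme, and Etnk1 (0.20 and -0.16), an ethanolamine kinase. Mtx1 (0.82 and 1.69) lay nearest to Sucla2 (0.88 and 1.42) and Opa1 (1.22 and 1.65), and Pisd (1.48 and 0.54) to Cept1 (1.94 and 0.69) and Ptpmt1 (1.18 and 1.10). The libraries share barcodes, so the 2 values of a gene are not independent.

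Apart from the 5 genes, 2 of 48 listed genes with enough long-read UMIs reached an isoform difference of 20 points (4.17%), beside 17.3% over all genes. Slc25a11 reached 25 points in an annotated full-span transcript, with 42 of 83 UMIs in low-UMI (50.6%, 39.4 to 61.8%) and 646 of 854 in high-UMI barcodes (75.6%, 72.6 to 78.5%). Dlst, a subunit of the oxoglutarate dehydrogenase complex, reached 23.8 points in an isoform truncated on the 3′ side, chr12:85110858-85114077, with 47 of 180 UMIs (26.1%, 19.9 to 33.2%) and 11 of 467 (2.36%, 1.18 to 4.18%). Pcyt2 (18.3 points) and Glud1 (18.2 points) came next. The median largest difference was 9.9 points over 16 genes of the TCA cycle and 8.34 over 14 genes of the outer membrane, beside 10.6 over all genes. Over the 6 measured genes of malate, PEP and aspartate it was 35.4 points, but Me2, Pck2 and Got2 among them were chosen on this value. The rest of that list stood at 25 points in Slc25a11, 5.79 in Mdh2 and 4.41 in Mdh1.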

How the data were processed

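The authors deposited raw UMI counts per gene from short reads for both libraries, raw UMI counts per isoform from long reads for the 10% library, and an isoform annotation, all on GRCm38 (mm10). Gene counts were made with scPipe and isoform counts with FLAMES. The submitters' processing notes also name Cell Ranger 1.3 and minimap2 2.17. No value was normalized before deposit.

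Counts were summed over the barcodes of a set and divided by their total UMIs (CPM), or by the UMIs of the gene (shares), in Python 3.11.15 with scipy 1.17.1. Gene symbols, exons and codons came from Gencode vM21. The functions were tested on simulated data. The 5 genes, the gene lists and the sets were chosen with earlier results of these data known. Named are the 5 genes, their isoforms with at least 5% of UMIs in either set, up to 4 genes per list that passed 2-fold in the same direction in both libraries, the 2 listed genes nearest to each of the 5, and the listed genes with the largest isoform differences. Within a list the genes were ordered by the mean log2 ratio over both libraries. Other genes named (Calcr, Mki67, Myod1, Me3, Pcx, Slc25a13, pseudogenes and overlapping genes) were chosen after their values were seen. Alternatives were other limits of the sets, means over barcodes, other bounds for full-span isoforms and other minimums. Leaving out shared barcodes or immune marker barcodes and the floor of 3 UMIs for list genes at 0 were chosen after seeing the data. Doublets were not called.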

Additional observations from a re-analysis of the deposited data

Results flagged for a closer look

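The level of Pck2 differed in direction between the libraries: the log2 ratio of high-UMI to low-UMI barcodes was 0.21 in the 10% library and -0.30 in the 90% library. The difference between the libraries was not tested, both intervals include 0 on the log2 scale, and the libraries share barcodes.

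Barcodes with under 1000 short-read UMIs, which no comparison of the sets uses, held long-read UMIs of all 5 genes. Me2 had 238 UMIs there, Pck2 had 81, Got2 had 269, Pisd had 69 and Mtx1 had 98, each above the limit of 3 counts. These are 1661 of the 1991 barcodes of the 10% library, with 84049 short-read and 1701003 long-read UMIs in all.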

How the results depend on the processing

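Of 40 recomputed gains of the leading isoform, 35 stayed within the interval of the value reported and none changed sign. With sets made by long-read UMIs the gain was 39.1 points in Me2 and 24.4 in Got2, and as a mean over barcodes it was 47.0 points in Me2, 23.4 in Got2 and 9.24 in Mtx1. The difference in full-span share was -37.6 points in Me2 and -23.5 in Got2 with sets by long-read UMIs, and -44.2 and -21.1 points as a mean over barcodes. Other bounds changed what counts as full-span by their construction. With both ends within 100 bases of the coding transcript the difference was -0.911 points in Me2 and 0 in Pck2 and Got2. With the 5′ end alone it was 0.651 points in Me2, 39.5 in Pck2 and 0 in Got2, so the direction turned in Me2 and Pck2, and -11.4 points in Pisd. With the RefSeq bounds, added after the data had been seen, it was 0 in Me2 and Pck2 and -3.81 points in Mtx1. All 75 recomputed levels of the 5 genes stayed within their intervals.

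Counts over all genes moved with their thresholds. The 564 genes with a difference of at least 20 points became 194 with 100 UMIs in each set and 184 at 30 points. Genes at least 2-fold higher numbered 3259 in the 10% and 4554 in the 90% library, 8775 and 10908 with a minimum of 1 UMI, and 2037 and 2769 at 3-fold. Genes at least 2-fold lower numbered 1649 and 2909, then 4735 and 6422, and 960 and 1832. Another minimum of UMIs also changes how many genes are tested, so these counts do not tell whether the shares changed. Shares over reference-named isoforms alone gave no value, since no leading isoform has such a name. No paired analysis was possible because there is 1 capture and no numbered replicate of any set.

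Depth limits the low-UMI shares most, which rest on 51 UMIs in Pck2, 54 in Mtx1, 67 in Pisd, 86 in Got2 and 160 in Me2.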
